A study of Homo sapiens with 6 samples.

Results

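The genes described here are antisense and long intergenic RNA genes, measured in A204 cells with and without the histone deacetylase inhibitor SAHA. They were chosen by symbol alone: an antisense gene has a symbol that ends in -AS or in -AS and a number, and a LINC gene has a symbol that starts with LINC. On probe sets that name exactly 1 gene, 391 of 18417 genes met this rule, 185 of them antisense genes and 206 LINC genes. A204 is a human rhabdoid tumour line, and tumours of this kind typically lack SMARCB1, a component of a complex that moves nucleosomes. The SAHA group comprised 3 arrays of cells treated for 12 h, and the dose label lacks a complete unit. The control group comprised 3 arrays of A204 cells that received DMSO according to the treatment protocol, although a second label gives their treatment as none. Both groups were grown in DMEM with FBS, and total RNA was hybridised to Affymetrix whole-transcript arrays.

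Antisense genes are transcribed from the strand opposite a named gene, here called the sense gene, and their transcripts can start inside it, beyond its end, or next to its promoter and run the other way. LINC genes are named as long intergenic RNA genes, without a known protein, although some overlap a protein-coding gene in RefSeq. Both kinds are commonly present at low levels and differ strongly between tissues, and only a minority have an assigned function. SAHA (vorinostat) blocks histone deacetylases, the enzymes that take acetyl groups off histones, and acetylated histones are found at active promoters.

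The windows around the annotated starts of 6 members and of 1 sense gene, TFAP2A, are printed as examples from the genes described below. They hold 250 bases before and 50 bases from the start on, 5′ to 3′ on the gene's own strand, from RefSeq for GRCh38.p14, with the transcribed 50 bases in capitals. Of a gene in a pair with several starts, the start nearest the partner is shown. KRT10-AS1 (chr17:40818935-40819234, plus strand) had one of the largest rises among antisense genes. URB1-AS1 (chr21:32392883-32393182, plus strand) rose beside a sense gene that did not pass the test. LINC02901 (chr6:158869564-158869863, plus strand) was the LINC gene with the largest rise. STARD7-AS1 (chr2:96208166-96208465, plus strand) was the antisense gene with the largest fall. TFAP2A-AS1 (chr6:10412068-10412367, plus strand) and TFAP2A (chr6:10412342-10412641, minus strand) fell together from facing starts that lie 73 bases apart, so that 26 transcribed bases in capitals are common to both windows as complements. LINC02870 (chr10:132444939-132445238, plus strand) fell and has a window with few CpG.
KRT10-AS1: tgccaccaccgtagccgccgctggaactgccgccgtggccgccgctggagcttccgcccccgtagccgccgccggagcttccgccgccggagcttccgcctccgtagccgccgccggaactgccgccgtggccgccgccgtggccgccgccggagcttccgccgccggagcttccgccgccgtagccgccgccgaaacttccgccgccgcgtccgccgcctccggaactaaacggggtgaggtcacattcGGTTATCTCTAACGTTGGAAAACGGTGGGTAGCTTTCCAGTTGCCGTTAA
URB1-AS1: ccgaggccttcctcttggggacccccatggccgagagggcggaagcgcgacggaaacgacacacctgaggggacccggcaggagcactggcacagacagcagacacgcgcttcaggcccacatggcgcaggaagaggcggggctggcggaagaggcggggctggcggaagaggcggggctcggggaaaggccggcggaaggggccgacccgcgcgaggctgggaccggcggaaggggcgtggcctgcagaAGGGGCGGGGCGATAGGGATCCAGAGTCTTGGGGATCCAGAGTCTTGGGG
LINC02901: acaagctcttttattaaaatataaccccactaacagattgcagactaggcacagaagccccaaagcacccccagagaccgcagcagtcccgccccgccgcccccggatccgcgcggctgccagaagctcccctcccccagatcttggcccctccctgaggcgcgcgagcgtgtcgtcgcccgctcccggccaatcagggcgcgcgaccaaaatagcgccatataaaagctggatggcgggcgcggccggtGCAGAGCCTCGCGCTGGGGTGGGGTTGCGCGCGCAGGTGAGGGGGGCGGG
STARD7-AS1: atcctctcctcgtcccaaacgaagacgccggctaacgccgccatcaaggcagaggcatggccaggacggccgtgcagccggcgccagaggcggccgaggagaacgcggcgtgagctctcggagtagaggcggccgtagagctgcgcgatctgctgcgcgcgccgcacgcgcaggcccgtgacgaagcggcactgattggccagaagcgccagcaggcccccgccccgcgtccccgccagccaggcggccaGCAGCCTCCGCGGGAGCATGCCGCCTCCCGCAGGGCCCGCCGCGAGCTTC
TFAP2A-AS1: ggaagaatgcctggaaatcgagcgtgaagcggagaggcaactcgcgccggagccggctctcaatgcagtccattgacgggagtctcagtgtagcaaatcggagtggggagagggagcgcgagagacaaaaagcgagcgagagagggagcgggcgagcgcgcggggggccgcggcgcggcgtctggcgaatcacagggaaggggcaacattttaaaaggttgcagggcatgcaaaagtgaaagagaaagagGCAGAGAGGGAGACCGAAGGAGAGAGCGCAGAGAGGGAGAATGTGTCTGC
TFAP2A: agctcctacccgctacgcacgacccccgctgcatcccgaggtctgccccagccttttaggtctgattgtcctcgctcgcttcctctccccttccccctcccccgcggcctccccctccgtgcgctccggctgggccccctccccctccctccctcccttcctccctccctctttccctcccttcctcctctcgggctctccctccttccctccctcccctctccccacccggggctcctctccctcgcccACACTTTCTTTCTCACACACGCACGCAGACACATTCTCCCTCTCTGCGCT
LINC02870: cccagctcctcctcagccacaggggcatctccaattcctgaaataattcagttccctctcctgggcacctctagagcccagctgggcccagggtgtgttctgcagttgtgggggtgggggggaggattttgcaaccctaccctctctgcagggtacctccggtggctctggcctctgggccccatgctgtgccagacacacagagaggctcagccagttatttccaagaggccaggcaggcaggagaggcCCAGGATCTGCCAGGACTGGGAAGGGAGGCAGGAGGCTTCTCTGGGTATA
The KRT10-AS1 window held 49 CpG, STARD7-AS1 42, LINC02901 30, URB1-AS1 28, TFAP2A-AS1 26, TFAP2A 18 and LINC02870 1, against a median of 14 over all 27305 RefSeq windows of that length.

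Array medians lay between 142 and 149 on the deposited linear intensity scale. Pearson correlations of the log2 values over all 33252 probe sets were 0.9965 to 0.9980 within groups and 0.9728 to 0.9738 between groups, and no arrays were identical. Of 6 markers listed for rhabdoid cells, KRT8 (13.55 ± 0.01 in control, SD, n = 3), KRT18 and VIM were bright, MUC1 (7.80 ± 0.13) and EPCAM (5.65 ± 0.003) were not, and SMARCB1 read 7.74 ± 0.04 in control and fell by 0.51. Of the markers of other cell types, PTPRC of blood cells (4.05 ± 0.07), DCN of fibroblasts (4.23 ± 0.04) and PECAM1 of endothelium (5.04 ± 0.10) were dim. Above the median level of all genes in at least 1 group were CDH5 (12.73 in control and 10.54 with SAHA), CD14 (8.94 and 10.94), COL1A2 (10.63 and 12.02), COL1A1 (9.05 and 9.38) and DES of muscle (7.58 and 8.34). Their part in the results below was not tested. In bulk RNA, fewer cells with a transcript and less of it per cell cannot be told apart. The labels do not say whether replicates came from separate cultures, so each p measures only the spread between these arrays.

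A gene was called higher or lower where limma's adjusted p over all genes was under 0.05. Over all 18417 genes, 60.0% were called, 31.1% higher and 28.9% lower. Of the 185 antisense genes, 42 rose, 34 fell and 109 did not pass the test, so that 41.1% were called. Without SAHA replicate 3 the number that fell was 22. Of the 206 LINC genes, 29 rose, 31 fell and 146 did not pass, so that 29.1% were called. The median change was 0.01 on the log2 scale over the antisense genes and -0.03 over the LINC genes, against -0.003 over all genes. A change of at least 2-fold was called upward in 10 antisense and 7 LINC genes, against 5.84% of all genes, and downward in 1 antisense and 5 LINC genes, against 5.42%. SAHA and control values did not overlap for 75 antisense and 72 LINC genes, against 65.4% of all genes.

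The members were dim. Their median RMA level, the log2 intensity averaged over 6 arrays, was 6.52 for antisense and 5.97 for LINC genes, against 8.14 for all genes. Levels of different probe sets depend on their probes as well as on the RNA, so they are used here only to compare genes of like brightness. Among genes under the median level of all genes, 40.6% of all genes, 63 of 169 antisense genes (37.3%) and 49 of 190 LINC genes (25.8%) were called. Between levels 5 and 6, the called share was 30.4% of all genes, 26.8% of 41 antisense genes and 15% of 60 LINC genes. Above level 8, it was 79.1% of all genes, 16 of 19 antisense genes and 14 of 19 LINC genes. The shares of the antisense genes were thus nearer to those of all genes of like brightness than to the share of all genes together, and those of the LINC genes were lower in each bin shown. At or above the median level, 10 of 16 antisense genes rose and 3 fell, 4 of 16 LINC genes rose and 7 fell, and of all genes 38% rose and 41.4% fell.

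**Figure D1:**
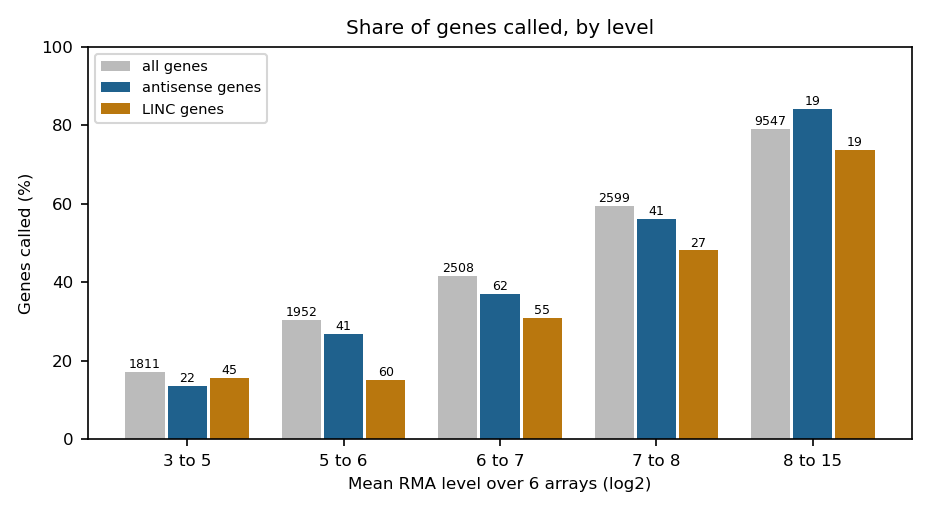
Share of genes called (limma's adjusted p under 0.05) in percent, by the mean RMA level over 6 arrays on the log2 scale, for all genes (grey), antisense genes (blue) and LINC genes (orange), with the number of genes in the bin above each bar. The share rose with the level in all 3 groups, from 17.2% of all genes between 3 and 5 to 79.1% above 8.

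Among the antisense genes that rose, PKD1L1-AS1 had the largest change. Its control arrays read 4.31, 4.50 and 4.12 and its SAHA arrays 8.85, 8.94 and 8.84, a log2 change of 4.57 ± 0.09 (SE, 23.7-fold, limma's adjusted p = 1.22e-08). The SAHA values lay close together and far above the control values. No background call was available and the control readings were about as dim as PTPRC and DCN, so this fold may be understated. The sense gene PKD1L1, of the polycystin family that works in cilia, changed by 0.10 ± 0.04 from 5.89 ± 0.02 and did not pass the test (adjusted p = 0.0866). The difference between the changes of antisense and sense gene, computed within each array, was 4.47 ± 0.10 (adjusted p = 1.62e-08).

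KRT10-AS1 read 6.69, 6.66 and 6.49 in control and 9.06, 8.95 and 8.89 with SAHA, a change of 2.35 ± 0.07 (5.11-fold, adjusted p = 5.78e-08). The groups lay far apart and the replicates of each close together. KRT10, a keratin of the upper layers of skin, also rose, from 6.05 ± 0.04 to 6.78 ± 0.05, and the antisense gene rose more by 1.62 ± 0.08 (adjusted p = 1.07e-06).

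ZNF667-AS1, named after a zinc finger gene, read 7.92, 7.97 and 6.98 in control and 9.78, 9.68 and 9.77 with SAHA, a change of 2.12 ± 0.24 (adjusted p = 8.95e-05). Control replicate 3 was low, and without it the change was 1.80. The sense gene ZNF667 changed by -0.09 ± 0.06 and did not pass the test (adjusted p = 0.24).

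URB1-AS1 read 8.67, 8.79 and 8.65 in control and 10.09, 10.14 and 10.14 with SAHA, a change of 1.42 ± 0.05 (adjusted p = 1.49e-07). Its sense gene URB1, which acts in making the large ribosomal subunit, read 9.47, 9.55 and 9.41 in control and 9.58, 9.52 and 9.56 with SAHA, so that its groups overlapped, and its change of 0.08 (95% interval -0.04 to 0.19) did not pass (adjusted p = 0.226). A further quantile normalization made it 0.14 with an adjusted p of 0.0319, the lowest over 16 alternatives, in which the p went up to 0.484. The difference within the pair was 1.34 ± 0.05 (adjusted p = 1.25e-07). The starts of the 2 genes lie 121 bases apart in RefSeq and point away from each other.

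PAX8-AS1 rose from 6.56 ± 0.14 to 7.95 ± 0.07, a change of 1.39 ± 0.07 (adjusted p = 1.21e-06). PAX8, a transcription factor of thyroid and kidney, changed by 0.07 (95% interval -0.04 to 0.19) and did not pass (adjusted p = 0.243). RHPN1-AS1 rose from 8.27 ± 0.10 to 9.52 ± 0.02 and its sense gene RHPN1 rose by 0.36 ± 0.05. The difference within this pair was 0.89 ± 0.05 (adjusted p = 1.66e-06). DLGAP1-AS1 rose from 9.93 ± 0.11 to 10.99 ± 0.01, and its sense gene was not among the genes measured on a probe set of its own. In this group of the largest rises, the sense gene, where measured, rose less, did not pass the test or, for CDKN2A, CIRBP and IRAG1 described further on, fell. Choosing the largest antisense rises favours such an outcome.

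Among the antisense genes that fell, STARD7-AS1 was the only one called with at least a 2-fold change. It read 7.01, 7.24 and 7.07 in control and 5.72, 6.0 and 6.25 with SAHA, a change of -1.12 ± 0.13 (adjusted p = 9.63e-05). STARD7, which carries phosphatidylcholine to mitochondria, fell from 12.41 ± 0.01 to 12.00 ± 0.04, and the antisense gene fell further, with a difference of -0.70 ± 0.12 (adjusted p = 0.00091).

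LIF-AS2 read 8.83, 8.91 and 8.88 in control and 7.97, 7.75 and 7.92 with SAHA, a change of -0.99 ± 0.06 (adjusted p = 3.26e-06). Here the sense gene LIF, a cytokine of the interleukin 6 family named leukaemia inhibitory factor, fell more, from 10.72 ± 0.08 to 9.41 ± 0.07, and the difference was 0.32 ± 0.06 (adjusted p = 0.00157). GAS6-AS1 fell by 0.63 ± 0.13 and GAS6, the ligand of the receptor AXL, fell by 0.57 ± 0.05. The difference of that pair was -0.06 (95% interval -0.36 to 0.24) and did not pass (adjusted p = 0.711). GOLGA4-AS1 fell from 8.31 ± 0.07 to 7.46 ± 0.03 while GOLGA4, a coiled-coil protein of the Golgi, read 10.17 ± 0.05 and 10.15 ± 0.05 and did not pass (adjusted p = 0.705). The sign of that GOLGA4 value turned under a further quantile normalization (0.0314) and in the fit without control replicate 1 (0.0068).

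Of 23 members listed whatever their values, 8 were measured. MCM3AP-AS1 fell by 0.40 ± 0.07 (adjusted p = 0.00112), as did MCM3AP by 0.29 ± 0.05. HOXA-AS2 (-0.06 ± 0.10, adjusted p = 0.634), HOXB-AS3 (0.01 ± 0.06, adjusted p = 0.893) and WT1-AS (0.07 ± 0.10, adjusted p = 0.572), from loci of developmental regulators, did not pass the test, and their groups overlapped. The 54 called antisense genes not named by the selection rule rose by 0.14 to 0.81 (30 genes) or changed by -0.54 to -0.15 (24 genes).

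**Figure D2:**
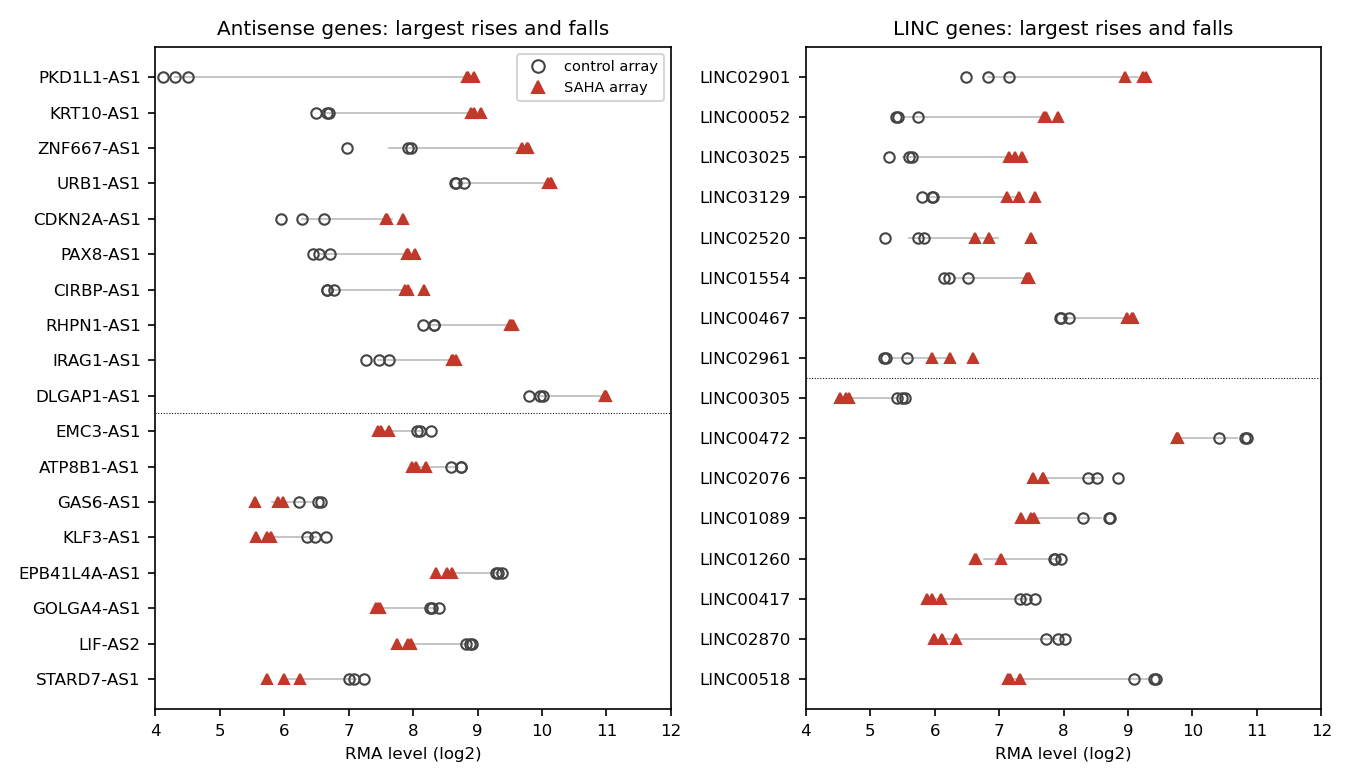
RMA level (log2) on each array for the antisense genes (left) and LINC genes (right) with the largest called rises, above the dotted line, and falls, below it. Open circles are control arrays, red triangles SAHA arrays, and grey lines join the group means. The genes were selected for groups that do not overlap, and control replicate 3 of ZNF667-AS1 stands apart at 6.98.

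Among the LINC genes that rose, LINC02901 read 6.82, 7.15 and 6.49 in control and 9.23, 8.95 and 9.27 with SAHA, a change of 2.33 ± 0.16 (5.03-fold, adjusted p = 5.18e-06). The control values spread from 6.49 to 7.15, and the groups lay well apart. In RefSeq order its protein-coding neighbours are SYTL3, a synaptotagmin-like protein of vesicle transport, and RSPH3, a radial spoke protein of cilia. Both rose, SYTL3 by 1.99 ± 0.09 (adjusted p = 6.13e-07) and RSPH3 by 1.26 ± 0.09 (adjusted p = 5.75e-06).

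LINC00052 read 5.40, 5.74 and 5.44 in control and 7.73, 7.69 and 7.91 with SAHA, a change of 2.25 ± 0.10 (4.76-fold, adjusted p = 4.32e-07). Its neighbour NTRK3, the receptor of neurotrophin 3, changed by -0.05 ± 0.09 and did not pass (adjusted p = 0.684), and AGBL1 fell by 0.15 ± 0.06. LINC01554 read 6.15, 6.51 and 6.22 in control and 7.46, 7.47 and 7.43 with SAHA, a change of 1.16 ± 0.09 (adjusted p = 1e-05). It lies between GLRX, the redox enzyme glutaredoxin, which rose by 3.44 ± 0.10, and ELL2, an elongation factor of RNA polymerase II, which rose by 2.29 ± 0.08.

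LINC03025 rose by 1.74 ± 0.10 (adjusted p = 1.59e-06) from control readings of 5.30, 5.60 and 5.65, beside ANKRD18A, which fell by 1.32 ± 0.05. LINC03129 rose by 1.41 ± 0.11 (adjusted p = 7.78e-06) from 5.80, 5.98 and 5.96, beside the zinc finger gene ZNF92, which fell by 1.38 ± 0.07. These raised genes therefore had neighbours that rose and neighbours that fell. LINC02520 (1.39 ± 0.23), LINC00467 (1.05 ± 0.05) and LINC02961 (0.92 ± 0.16) rose as well. The SAHA readings of LINC02520, at 6.85, 7.50 and 6.62, spread the most of these. Both neighbours of LINC00467 fell, TRAF5 by 0.28 ± 0.07 (adjusted p = 0.00761) and RD3 by 0.15 ± 0.05 (adjusted p = 0.0327).

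LINC00518, whose RNA is used with that of PRAME to test skin lesions for melanoma, had the largest fall. It read 9.40, 9.43 and 9.10 in control and 7.17, 7.13 and 7.32 with SAHA, a change of -2.10 ± 0.10 (4.29-fold lower, adjusted p = 5.06e-07). Its neighbour TFAP2A, the transcription factor AP-2 alpha, fell by 0.81 ± 0.05 (adjusted p = 2.61e-06), and the neighbour on the other side, GCNT2, did not pass the test. With TFAP2A-AS1, which fell by 0.46 ± 0.06 (adjusted p = 0.000353), all 3 of these genes around TFAP2A were lower on every SAHA array than on any control array.

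LINC02870 read 7.72, 7.92 and 8.02 in control and 5.98, 6.11 and 6.33 with SAHA, a change of -1.75 ± 0.10 (adjusted p = 1.98e-06). LINC00417 fell by 1.46 ± 0.08 beside BAGE5, which rose by 0.53 ± 0.07 (adjusted p = 0.000357). LINC01260 fell by 1.12 ± 0.10 beside ADA, the enzyme adenosine deaminase, which fell by 0.43 ± 0.04. LINC01089, studied in breast cells as a transcript that restrains metastasis, read 8.71, 8.72 and 8.30 in control and 7.33, 7.50 and 7.54 with SAHA, a change of -1.12 ± 0.12 (adjusted p = 6.21e-05). It overlaps SETD1B, a histone methyltransferase, which fell by 0.92 ± 0.06 (adjusted p = 5.78e-06).

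LINC00472 read 10.81, 10.85 and 10.42 in control and 9.76, 9.77 and 9.78 with SAHA, a change of -0.92 ± 0.11 (adjusted p = 0.000107), and its neighbour OGFRL1 fell by 0.48 ± 0.06. RIMS1, on the other side of LINC00472, changed by 0.09 ± 0.06 and did not pass (adjusted p = 0.245). LINC02076 fell by 0.95 ± 0.11 and LINC00305 by 0.88 ± 0.06, the latter beside SERPINB8, which rose by 0.23 ± 0.04 (adjusted p = 0.00159). The other 44 called LINC genes rose by 0.18 to 0.88 (21 genes) or changed by -0.69 to -0.14 (23 genes).

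Over all LINC genes with measured neighbours, the 28 that rose had 55 protein-coding neighbours, of which 21 rose, 18 fell and 16 did not pass. The 30 that fell had 59 neighbours, of which 16 rose, 22 fell and 21 did not pass. The 145 that were not called had 288 neighbours, of which 101 rose and 77 fell. A gene beside several LINC genes counts once for each of them, and genes that overlap a LINC gene, such as SETD1B, are left out. Over all genes 31.1% rose and 28.9% fell. The neighbours named beside single LINC genes, among them those of LINC02901, LINC01554 and LINC00518, were chosen for mention after their values were seen. Not every neighbour is named.

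A sense gene of the same name was measured for 165 antisense genes, which pair with 163 sense genes, and 20 antisense genes had none. Of the sense genes, 44 rose, 52 fell and 67 did not pass the test, so that 58.9% were called. Both genes were called in 44 pairs. In 13 of these both rose, in 14 both fell, in 9 the antisense gene rose while the sense gene fell, and in 8 the antisense gene fell while the sense gene rose. The 2 changes had the same sign in 92 of 165 pairs, and across pairs they correlated weakly (Pearson's r = 0.10, Spearman's coefficient = 0.18), a description over genes measured on the same arrays. The difference within the pair was called for 96 of 165 pairs (58.2%), with the antisense gene above the sense gene in 57 and below it in 39. That share was close to the 58.9% of sense genes and the 60.0% of all genes called by themselves. Only the sense gene was called in 23 pairs where it rose and 29 where it fell. Only the antisense gene was called in 16 pairs where it rose and 9 where it fell. The sense gene read brighter in 126 of 165 pairs, at a median level of 8.21 against 6.55 for the antisense gene. Brighter genes were called more often, and the part of brightness in these counts was not tested. Differences between unpaired genes were not tested, so the share does not show a divergence particular to these pairs.

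Of the pairs in which the antisense gene rose and the sense gene fell, CDKN2A-AS1 and CDKN2A differed the most. CDKN2A-AS1 read 5.95, 6.27 and 6.61 in control and 7.57, 7.59 and 7.85 with SAHA, a change of 1.39 ± 0.16 (adjusted p = 9.15e-05). CDKN2A, which encodes inhibitors of the cell cycle, read 9.52, 9.82 and 9.55 in control and 8.90, 8.75 and 9.03 with SAHA, a change of -0.73 ± 0.10 (adjusted p = 0.000251). Neither gene's groups overlapped, and the difference within the pair was 2.13 ± 0.16 (adjusted p = 8.48e-06).

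CIRBP-AS1 read 6.67, 6.67 and 6.77 in control and 7.92, 7.87 and 8.17 with SAHA, a change of 1.29 ± 0.08. CIRBP, an RNA-binding protein induced by cold, fell from 10.91 ± 0.01 to 10.32 ± 0.02, and the difference was 1.88 ± 0.08 (adjusted p = 3.43e-07). IRAG1-AS1 rose from 7.46 ± 0.18 to 8.63 ± 0.04 while IRAG1, a substrate of the cGMP-dependent kinase, fell by 0.18 ± 0.06 (adjusted p = 0.0354). The call of IRAG1 was lost in 5 alternatives, among them those without control replicate 1 (-0.15), without SAHA replicate 2 (-0.19) and without SAHA replicate 3 (-0.13), and its adjusted p over all alternatives was 0.0113 to 0.12.

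DLG5-AS1 (0.26 ± 0.08, adjusted p = 0.0246) and DIAPH2-AS1 (0.48 ± 0.13, adjusted p = 0.0115) rose slightly beside larger falls of DLG5, a scaffold of cell polarity (-1.14 ± 0.06), and DIAPH2, a formin that builds actin filaments (-0.87 ± 0.05). DLG5-AS1 lost its call without SAHA replicate 1 (0.24), without SAHA replicate 3 (0.26) and in an ordinary test per gene, with adjusted p from 0.00502 to 0.0978 over its alternatives. DIAPH2-AS1 lost its call in the ordinary test alone, with adjusted p from 0.00165 to 0.0786. The differences within these pairs were 1.40 ± 0.08 (adjusted p = 1.6e-06) and 1.35 ± 0.16 (adjusted p = 0.000119).

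Of the pairs in which the antisense gene fell and the sense gene rose, ATP8B1-AS1 read 8.74, 8.75 and 8.58 in control and 7.98, 8.20 and 8.04 with SAHA, a change of -0.62 ± 0.07. ATP8B1, a flippase that moves phospholipids across membranes, read 8.68, 8.74 and 8.57 in control and 9.56, 9.50 and 9.56 with SAHA, a change of 0.88 ± 0.05. The difference was -1.49 ± 0.07 (adjusted p = 8.03e-07). EMC3-AS1 fell from 8.15 ± 0.12 to 7.53 ± 0.09 while EMC3, a subunit of the complex that inserts proteins into the endoplasmic reticulum membrane, rose from 11.41 ± 0.06 to 12.26 ± 0.04, a difference of -1.47 ± 0.09 (adjusted p = 2.07e-06).

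EPB41L4A-AS1 fell from 9.33 ± 0.05 to 8.49 ± 0.13 while EPB41L4A, of the band 4.1 family of membrane skeleton proteins, rose by 0.37 ± 0.08. KLF3-AS1 fell from 6.49 ± 0.14 to 5.70 ± 0.13 while KLF3, a repressor of the Krüppel-like family, rose by 0.24 ± 0.04. GATA3-AS1 fell by 0.19 ± 0.07 (adjusted p = 0.0377) while GATA3, a transcription factor of T cells and luminal epithelium, rose by 0.68 ± 0.08 (adjusted p = 0.000156). The call of GATA3-AS1 was lost in 7 alternatives, including those without control replicate 1 (-0.16), control replicate 3 (-0.18), SAHA replicate 1 (-0.13) and SAHA replicate 3 (-0.19), with adjusted p from 0.0152 to 0.126 over all. The differences of these 3 pairs were -1.21 ± 0.12, -1.03 ± 0.09 and -0.87 ± 0.12, with adjusted p of 4.44e-05, 1.82e-05 and 0.000324.

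**Figure D3:**
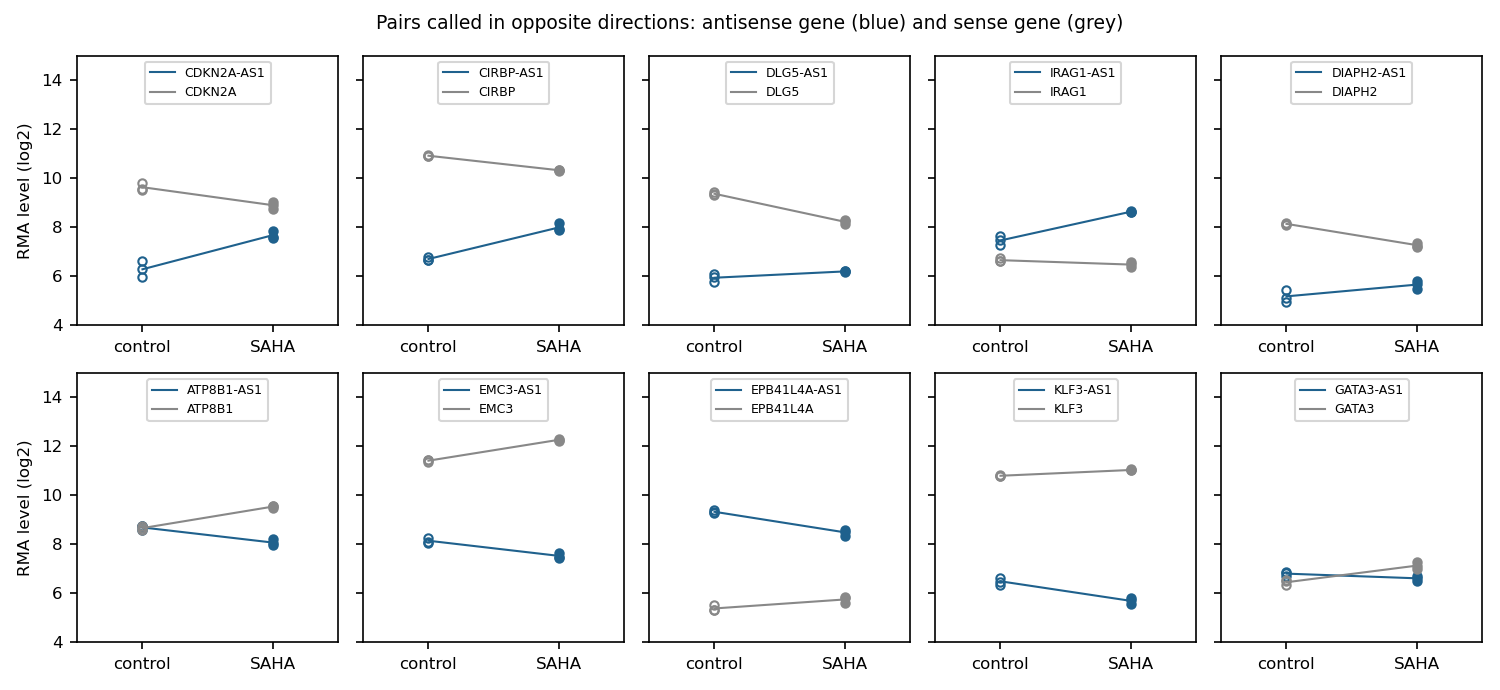
RMA level (log2) of the antisense gene (blue) and its sense gene (grey) on the control arrays (open circles) and SAHA arrays (filled circles) for the 5 pairs with the largest difference in each direction, with lines joining the group means. In the upper row the antisense gene rose and the sense gene fell, and in the lower row the reverse. The heights of the 2 probe sets of a pair are not compared.

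The pairs were also described by where their transcripts start. RefSeq windows gave both starts for 98 pairs, and the nearest starts were taken where a gene has several. This grouping was chosen after the values were seen, so it is a description without a test. In 25 pairs the antisense start lay at most 1000 bases downstream of the sense start, so that the transcripts run toward and across each other. In 22 of them (88%) the 2 changes had the same sign. In 11 of them both genes were called, in 7 pairs both lower and in 4 both higher, and in 0 pairs in opposite directions. Just outside the 1000 bases, at 1042, UBXN7-AS1 fell (-0.18) while UBXN7 rose (0.18). In another 25 pairs the antisense start lay at most 1000 bases upstream, so that the transcripts run apart. In 7 of them (28%) the signs were the same, and of 7 pairs with both genes called, 2 moved together and 5 oppositely. The pair of TPT1 is among these opposite pairs only by the probe set used for TPT1-AS1, as described below. In the 48 pairs with starts farther apart, 23 (47.9%) had the same sign.

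Without single arrays the same-sign count was 18 to 23 of 25 for downstream starts and 7 to 11 of 25 for upstream starts, the highest of the latter without control replicate 3. With the window at 500 bases the counts were 12 of 14 for downstream and 7 of 22 for upstream starts. At 2000 bases they were 23 of 31 and 7 of 25, so that of the 6 downstream pairs this adds, 1 had the same sign. With the first listed start of each gene they were 22 of 26 and 2 of 16. Spearman's coefficient of the 2 changes was 0.79 for downstream and -0.22 for upstream starts, and Pearson's r 0.49 and -0.06, over 25 pairs each that share the same 6 arrays. Whether a probe set also reads RNA of the opposite strand was not tested.

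Among the downstream starts, TFAP2A-AS1 read 8.09, 8.12 and 8.22 in control and 7.74, 7.57 and 7.74 with SAHA. TFAP2A read 11.25, 11.18 and 11.13 in control and 10.41, 10.32 and 10.39 with SAHA, so that neither gene's groups overlapped. The sense gene fell more, by a difference of 0.35 ± 0.07 (adjusted p = 0.00265).

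NEXN-AS1, opposite the gene of the actin-binding protein nexilin, fell by 0.29 ± 0.10 (adjusted p = 0.0388) beside a fall of NEXN by 2.44 ± 0.09, from 9.02 ± 0.09 to 6.57 ± 0.17. ZNF436-AS1 fell by 0.40 ± 0.09 beside ZNF436, a zinc finger gene, which fell by 1.54 ± 0.05. FBXL19-AS1 fell by 0.54 ± 0.12 beside FBXL19, an F-box protein, which fell by 0.30 ± 0.05, and that difference did not pass (adjusted p = 0.145). SPEN-AS1 rose from 7.33 ± 0.09 to 7.84 ± 0.03 beside SPEN, a transcriptional corepressor, which rose from 10.11 ± 0.05 to 10.64 ± 0.02, a difference of -0.01 ± 0.07 (adjusted p = 0.893). The fall of the sense gene was thus larger than that of the antisense gene at TFAP2A, NEXN and ZNF436, and smaller at STARD7. At each of these loci the antisense probe set was the dimmer, and the part of brightness was not tested. The downstream pairs of unlike sign were those of DOCK8, ERCC6L2 and NKX2-1, in each of which only 1 gene was called.

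Among the upstream starts, ARHGAP5-AS1 rose from 10.62 ± 0.11 to 11.36 ± 0.03 (adjusted p = 1.5e-05) beside ARHGAP5, which fell from 11.50 ± 0.06 to 11.22 ± 0.02 (adjusted p = 0.000808). SPART-AS1 fell by 0.29 ± 0.06 from a dim 4.59 ± 0.10 beside SPART, the spastic paraplegia protein spartin, which rose by 0.15 ± 0.04. TPT1-AS1 fell by 0.31 ± 0.11 (adjusted p = 0.0406) beside TPT1, the translationally controlled tumour protein, which rose by 0.16 ± 0.05. A second probe set of TPT1-AS1 read 7.97 in control and 8.02 with SAHA, a change of 0.05 with the sign of TPT1. The probe set used read 8.23 and 7.92, so that the place of this pair among the opposite ones rests on the choice of probe set. Whether the probe set used lies at the locus of TPT1 was not tested. WWC2-AS2 and WWC2 (0.20 ± 0.06 and -0.13 ± 0.05) and GATA3-AS1 and GATA3 were the other opposite pairs. KTN1-AS1 (0.43 ± 0.05) rose beside KTN1, the kinesin-binding protein kinectin (0.21 ± 0.04), and SCOC-AS1 (0.52 ± 0.05) beside SCOC, a coiled-coil protein of the Golgi (0.19 ± 0.05). These pairs by start were likewise picked after their values were seen.

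**Figure D4:**
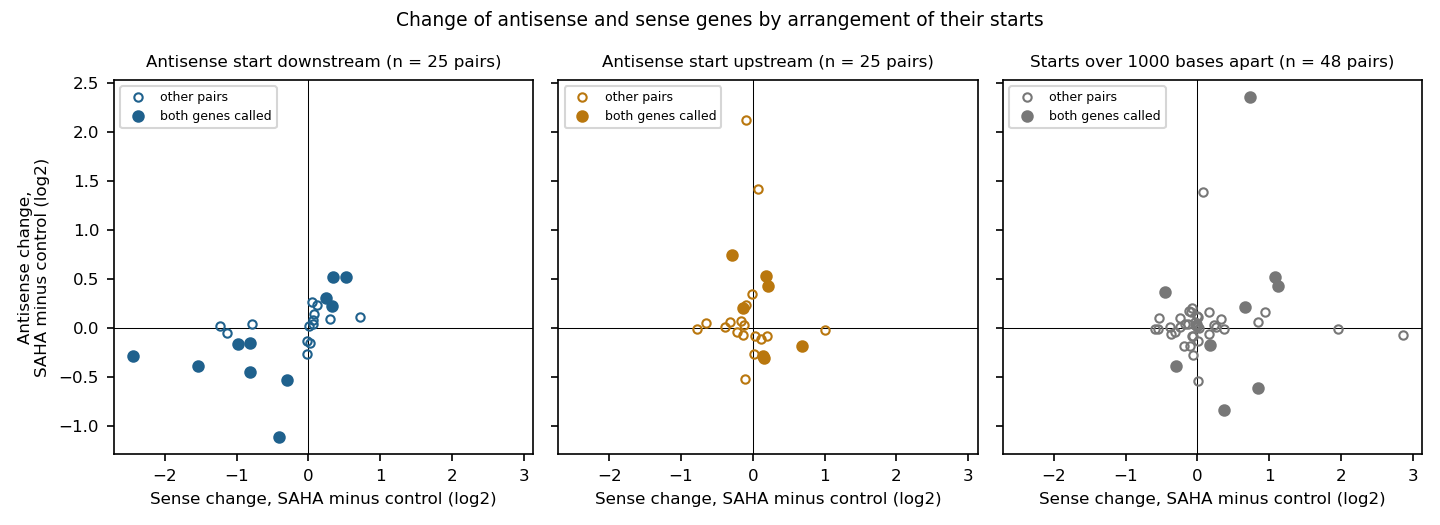
Change of the antisense gene against change of its sense gene, both SAHA minus control on the log2 scale, for pairs with the antisense start at most 1000 bases downstream (left, 25 pairs) or upstream (middle, 25 pairs) of the sense start and for starts farther apart (right, 48 pairs). Filled points are pairs with both genes called. Of the filled points on the left, 11 of 11 lie in the lower left or upper right of the panel, against 2 of 7 in the middle.

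RefSeq windows around the start were matched for 129 antisense and 147 LINC genes. The median number of CpG in the 300 bases was 24 for antisense genes that rose, 25 for those that fell and 10 for those not called, against 25, 26 and 14 over all measured genes with a window. For LINC genes the medians were 8.5, 8 and 7. Brightness moved with this, since the median level was 7.50, 6.88 and 6.12 for the antisense genes that rose, fell and were not called, and its part was not tested. The letters GGGCGG, searched on both strands, were in 76.7% of 30 windows of antisense genes that rose, in 50% of 26 that fell and in 34.2% of 73 not called, against 70.1%, 65.2% and 47.2% of all measured genes that rose, fell and were not called, and 44.6% of all RefSeq windows. For LINC genes that rose, fell and were not called the shares were 25%, 39.1% and 27.8%. The letters TATAAA were in 0 of the 30 windows of raised antisense genes, against 7.07% of all measured genes that rose. For LINC genes that rose, fell and were not called they were in 12.5% of 16, 13% of 23 and 14.8% of 108 windows. Of all measured genes with these calls the shares were 7.07%, 6.51% and 12.6%, and of all RefSeq windows 12%. A match of letters is a description and not a binding site.

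Long noncoding RNA genes that the symbol rule leaves out were listed by name, and 15 of 47 were measured. Of these, 9 rose, 5 fell and TERC, the RNA of telomerase, did not pass the test (adjusted p = 0.0644). Their median level was 9.33, and 79.4% of all genes at or above the median level were called. UCA1, first described in bladder cancer, read 7.35, 7.51 and 8.22 in control and 10.98, 10.98 and 10.93 with SAHA, a change of 3.27 ± 0.20 (adjusted p = 2.31e-06). MEG3, an imprinted gene expressed from the maternal copy, rose by 1.31 ± 0.04 (adjusted p = 1.11e-07). MIR17HG, host of a microRNA cluster that favours growth, fell by 1.41 ± 0.08, and DLEU2, host of microRNAs lost in chronic lymphocytic leukaemia, fell by 1.29 ± 0.06, while its neighbour DLEU1 rose by 0.90 ± 0.06. MALAT1, an abundant RNA of nuclear speckles, rose by 0.31 ± 0.06.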

How the data were processed

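The deposited values are probe set intensity values on a linear scale, made with RMA per the submitters' processing notes. The version of RMA, the annotation and the build are not given in the sources used. Log2 was taken before every test. Of 33252 probe sets, 19460 named exactly 1 gene, and symbols were updated with RefSeq names of GRCh38.p14 (19429 matched). Of several probe sets of a gene, the one with the highest mean over 6 arrays stood for it. SAHA was compared with control by limma 3.58.1 in R 4.3.3 (lmFit, eBayes, no covariates, two-sided), with Benjamini-Hochberg adjustment over all 18417 genes. Pair differences, antisense minus sense within each array, were fitted and adjusted together with all genes. Changes are SAHA minus control with the model's SE, and levels are mean ± SD of 3 arrays. The number of arrays limits the precision.

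Named genes were the 10 largest rises and 8 largest falls of called antisense genes without overlap, the 8 largest each way of LINC genes, their sense genes, the 5 largest opposite pairs each way, and listed members. Members and lists were chosen with earlier results of these data known. On simulated data for this comparison with 18417 genes, 96% of changes of 0.5 and 100% of changes of 1 were recovered. Of the calls, 2.51% were false, and 5% of pair differences of true size 0 were called. Changes were added at full size whatever the level, so losses at dim probe sets were not simulated. No gene could be called above background.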

Additional observations from a re-analysis of the deposited data

How the results depend on the processing

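Results were recomputed with quantile normalization of the deposited values, with median centring, without genes under level 5 or under the median level, with averaged probe sets, with older symbols, with trended and robust eBayes, with an unmoderated test, with array weights, with replicate number as a block and without each array. Of the 54 called genes named, 50 kept their direction and call in every one of up to 16 settings in which they were tested. Leaving out genes under the median level removes most members by construction and left 10 antisense genes higher and 3 lower, 5 LINC genes higher and 8 lower, 28 sense genes higher and 11 pair differences. The unmoderated test left 18 antisense and 20 LINC genes lower, and the cause was not tested. Without single arrays, 35 to 43 antisense genes were higher and 22 to 30 lower, 29 to 33 LINC genes higher and 24 to 34 lower, 41 to 47 sense genes higher and 44 to 51 lower, and 86 to 98 pair differences were called. Small uncalled changes turned sign, and the cause was not tested: under quantile normalization GOLGA4 came to 0.0314, HOXA-AS2 to 0.0125, and the log2 change of HOXB-AS3 was -0.0335. Without single arrays GOLGA4 ranged from -0.0501 to 0.0068, HOXB-AS3 from -0.0371 to 0.0547 and WT1-AS from -0.0210 to 0.1653. Deviations of same-numbered arrays from their group means correlated at -0.030, -0.167 and -0.004, so that no pairing by replicate number was visible. These values cannot show how the samples were set up. With the replicate block, 40 antisense genes were higher and 31 lower, 30 LINC genes were higher and 34 lower, and 96 pair differences were called. Dim probe sets may understate changes, since no background call was available.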
